A study of Homo sapiens with 12 samples.

Results

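Here 10 of the 59276 annotated genes in an RNA-seq profile of MM1S cells were chosen by name as the route from the IL6 and IGF1 receptors to STAT3. They were the receptor chains IL6R, IL6ST, IGF1R and INSR, the kinases JAK1 and JAK2, the transcription factor STAT3, the feedback inhibitors SOCS1 and SOCS3, and the serine/threonine kinase PIM2. The rule names the genes and holds no threshold on a measured value. MM1S is an established human multiple myeloma (MM) cell line, and all libraries came from this 1 line.

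The groups were untreated cells at day 0 and cells at day 2, day 3 and day 5 of NGI-1, with 3 libraries in each of the 4 groups and 12 in all. NGI-1 is a small-molecule inhibitor of the oligosaccharyltransferase (OST) complex, the enzyme of the endoplasmic reticulum that attaches N-glycans to new proteins. The untreated libraries carry the label NGI-1 with a time of 0 days and were read as untreated, and whether they received the solvent is not given in the sources used here. They were taken at day 0 only, so the drug and the time in culture cannot be told apart at any day. The labels do not say whether the 3 libraries of a group came from separate cultures, and the p-values then measure only the spread between these libraries, which may be technical.

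As background, IL6 is a growth and survival factor of MM cells. It binds the receptor chain encoded by IL6R, and the pair then recruits the signaling chain gp130, encoded by IL6ST. JAK1, JAK2 and TYK2 sit on the tail of gp130, phosphorylate it and so recruit STAT3, which enters the nucleus as a dimer and drives genes including SOCS3 and the PIM kinases. SOCS1 and SOCS3 shut the signal down. IGF1, acting through IGF1R and its relative the insulin receptor INSR, is another growth factor of MM cells and signals mainly through the PI3K-AKT and RAS-MAPK pathways. The receptor chains are N-glycosylated proteins. The data here are RNA levels, and they hold no measure of protein, glycosylation or phosphorylation.

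Levels are given as TPM, the number of transcripts of a gene in a fixed total, which are scaled by transcript length and so can be compared between genes. Changes are differences of log2(TPM + 1), which understate the change of genes near 0. A gene entered the tests if its TPM was at least 1 in at least 3 libraries, which 11939 genes did. It was called higher or lower at an adjusted p below 0.05 (limma, Benjamini-Hochberg over all tested genes) and a log2 change above 0.5 in size. IL6R, IL6ST, IGF1R, INSR, JAK1, JAK2, STAT3 and PIM2 passed this filter, and SOCS1 and SOCS3 did not.

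The scale bears on most of the results. On the deposited scale the median log2 change of all tested genes against untreated was -0.18 at day 2, -0.73 at day 3 and -0.99 at day 5. TPM sums to the same total in every library, so a rise in some genes lowers the values of all others. Each change is therefore also given after a rescaling that set the median log2 ratio over 5433 genes with a mean TPM of at least 10 to 0 in every library, after which those medians lay at 0.013, -0.027 and -0.019. In bulk RNA, fewer cells carrying a transcript and less of it per cell cannot be told apart.

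Libraries of a group correlated at 0.992 to 0.996 across genes, which are not independent replicates, and no pair of libraries was identical. The day 3 replicate 2 and the day 5 replicate 3 stood closest to the untreated libraries in scaling within their days. Each held the highest level of its day in 6 of the 8 tested genes, as did the untreated replicate 2 and the day 2 replicate 2 in their groups. Plasma cell markers were present, with 9 of 10 above the filter, and their summed TPM was 11997 to 14140 in untreated cells, 19036 to 22241 at day 2, 25498 to 28391 at day 3 and 19920 to 21182 at day 5. Most of that sum was JCHAIN, with a mean of 9697 TPM in untreated cells and 23656 at day 3, and the markers did not move together: at day 5, 5 of the 9 were called lower (SDC1, CD38, IRF4, XBP1 and MZB1) and 2 higher (JCHAIN and TNFRSF17), with 2 lower and 4 higher after rescaling. Of all tested genes 69.8% were lower and 7.73% higher at day 5, with 26.9% lower and 27.5% higher after rescaling. Markers of other lineages were low, with summed TPM of at most 6.37 for B cells, 7.26 for T and NK cells, 0.745 for myeloid cells and 0.448 for stromal cells, and with CD22, CD3D, FCGR3A, MPO, COL1A2 and COL3A1 listed at 0 in every library. The sums of the T and B cell markers came mostly from CD3E, a T cell gene with group means of 3.00, 6.33, 5.79 and 4.01 TPM, called higher at day 2 and day 3, and from BACH2, a B cell gene at 2.19, 5.47, 3.31 and 3.02 TPM, called higher at day 2, so both were in the range of IGF1R and JAK2. The part of these markers in the results was not tested.

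In untreated MM1S cells the order of the levels ran from PIM2 at 300.2 ± 7.61 TPM (SD, n = 3) to SOCS1 at 0.00978 TPM. IL6R followed PIM2 at 168 ± 2.41 TPM and was 3.27 to 3.43 times as high as IL6ST in the 3 libraries, IL6ST itself standing at 50.2 ± 1.79 TPM. INSR (21.1 ± 1.10 TPM), JAK1 (21.1 ± 2.21 TPM) and STAT3 (19.6 ± 1.37 TPM) lay close together, and the libraries of INSR and JAK1 and those of JAK1 and STAT3 overlapped. Below them came IGF1R at 5.55 ± 0.822 TPM, JAK2 at 2.63 ± 0.246 TPM and SOCS3 at 0.457 ± 0.0618 TPM. All other neighbours in this order were apart in every untreated library.

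**Figure D1:**
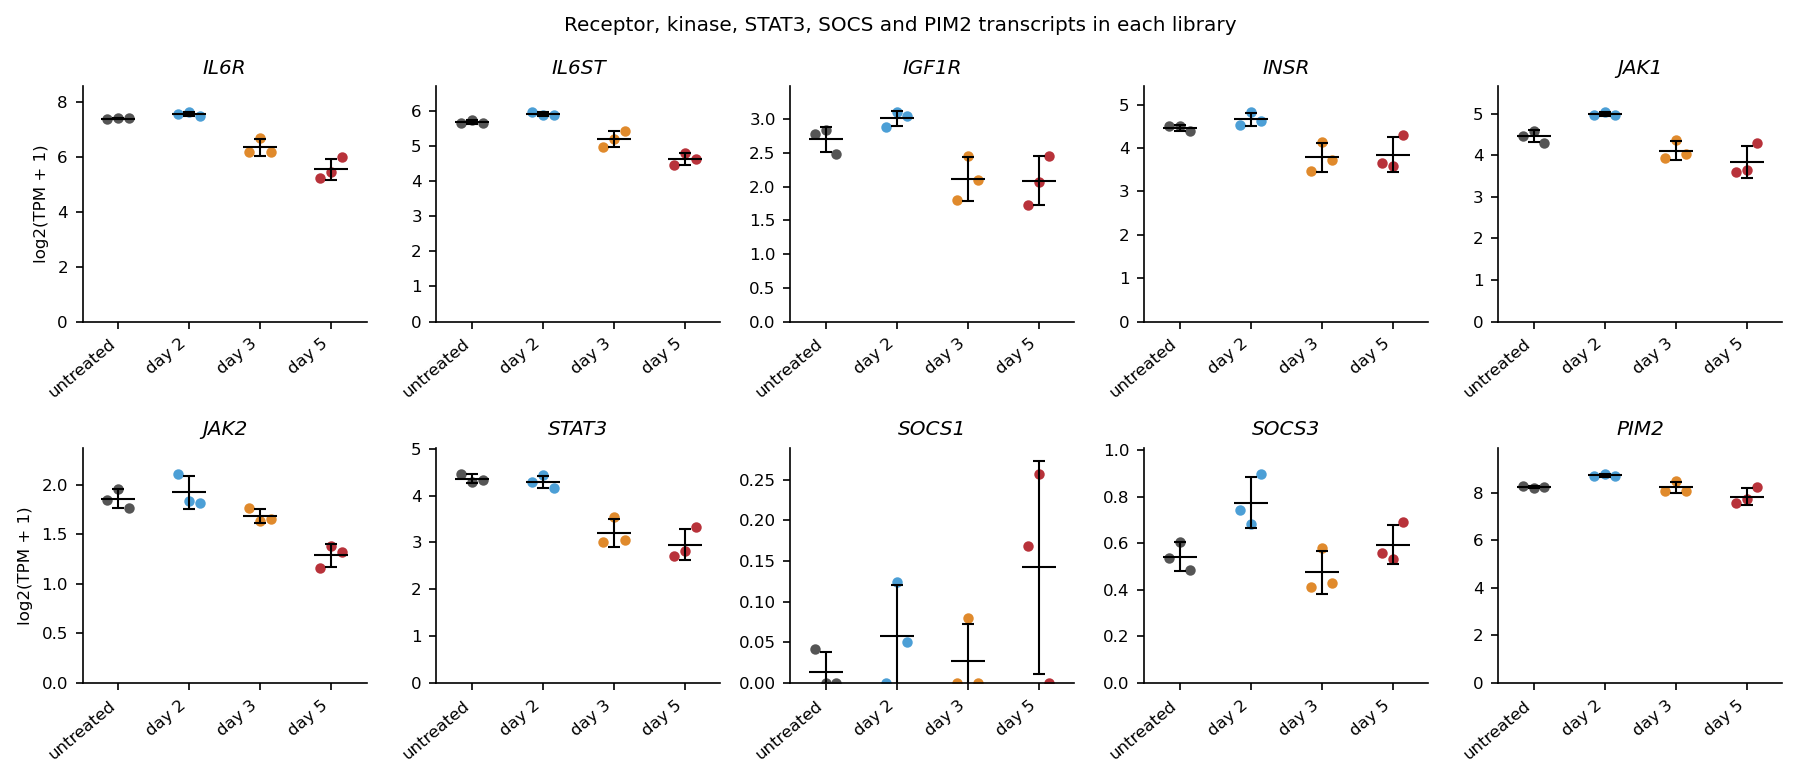
Log2(TPM + 1) of the 10 genes in each of the 12 libraries (points), with the mean and SD of each group of 3 (bar and whiskers); each panel has its own axis from 0. IL6R fell from a mean of 7.40 in untreated cells to 5.56 at day 5, and SOCS1 stayed near 0 throughout.

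Upon NGI-1 treatment, JAK1 and PIM2 were higher at day 2, and most of the 8 tested genes were lower at day 5 on the deposited scale but not after rescaling. At day 2, 2 of 8 were called higher and 0 lower, where 8.04% of all tested genes were called higher and 23.2% lower. At day 3, 4 were called lower, against a background of 61.5% lower and 7.59% higher. At day 5 the count was 7 of 8 lower and 0 higher, against 69.8% lower and 7.73% higher, so the share at both later days must be read against a majority of all genes that was also lower. After rescaling, 2 were called higher at day 2 (background 12.9% higher, 11.4% lower), 1 higher at day 3 (23.9% higher, 24.2% lower), and 3 higher and 1 lower at day 5 (27.5% higher, 26.9% lower). In the F test over the 4 groups all 8 genes passed, as did 90.1% of all tested genes.

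Relative to the median gene, all 8 changes lay above the median change at day 2, at percentiles 60.4 to 92.2 of all tested genes. At day 3, 6 lay above it, with IL6R and STAT3 below. At day 5, 5 lay above it, with IL6R, STAT3 and IL6ST below, and the percentiles spread from 15.7 for IL6R to 73.8 for PIM2. The 3 comparisons share the untreated libraries.

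**Figure D2:**
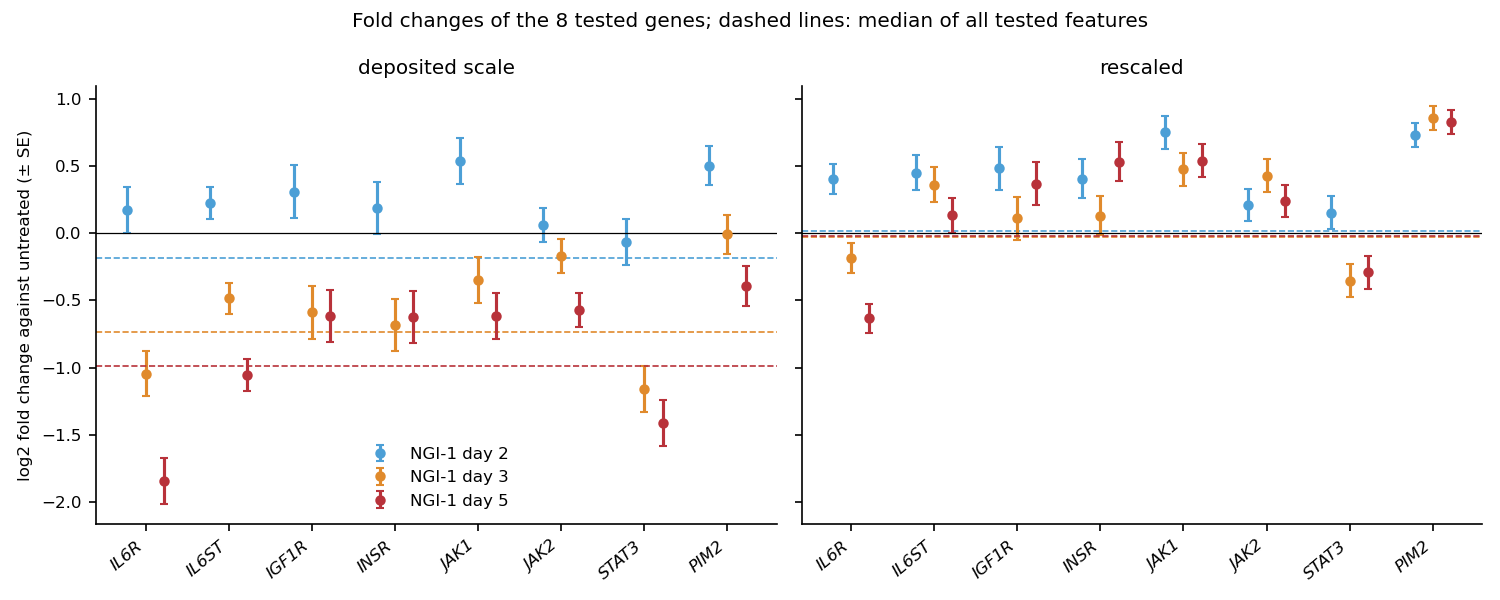
Log2 fold change against untreated (± SE from the limma fit, 3 libraries a group) of the 8 tested genes at day 2, day 3 and day 5, on the deposited scale (left) and after rescaling (right); dashed lines mark the median of all 11939 tested genes at each day. IL6R reached -1.84 at day 5 on the deposited scale and -0.63 after rescaling, while PIM2 lay at -0.39 and 0.83.

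IL6R, the ligand-binding chain of the IL6 receptor, fell the most of the 8 tested genes at day 5, when it was the only one of the 8 called lower on both scales, whereas at day 3 the change of STAT3 was the larger one (-1.16 against -1.05). Its TPM was 166, 171 and 169 in the untreated libraries, 191, 198 and 182 at day 2, 72.1, 104 and 71.2 at day 3, followed by 36.5, 43.2 and 62.3 at day 5. Every day 2 library was above, and every day 3 and day 5 library below, all untreated libraries, with no overlap between day 3 and day 5. The log2 change was 0.17 ± 0.17 (SE) at day 2 (adjusted p = 0.428), -1.05 ± 0.17 at day 3 (adjusted p = 6.52e-05) and -1.84 ± 0.17 at day 5 (adjusted p = 1.81e-07), which is 0.278 of the untreated value of TPM + 1. After rescaling the changes were 0.40, -0.19 and -0.63, and the day 5 value was the one called. In order of mean TPM among all 59276 genes, IL6R moved from place 665 in untreated cells to 492 at day 2, 794 at day 3 and 1097 at day 5. The gene lies on chr1:154405193-154469450 of GRCh38 on the plus strand (GENCODE 29).

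IL6ST encodes gp130, the signaling chain that IL6R shares with the other receptors of the IL6 family. Its TPM was 49.1, 52.3 and 49.2 in untreated cells, 61.0, 57.3 and 58.0 at day 2, 30.0, 35.7 and 41.9 at day 3, followed by 20.7, 26.6 and 23.8 at day 5. The day 5 libraries were all below the day 3 libraries, which in turn were all below the untreated ones. The log2 change of -1.06 ± 0.12 at day 5 was called lower (adjusted p = 1.42e-06), but it was 0.13 and not called after rescaling. The change at day 3 was -0.49 ± 0.12 (adjusted p = 0.00194) and missed the size threshold, and at day 2 it was 0.22 ± 0.12 (adjusted p = 0.142). IL6ST lies on chr5:55935095-55994993 on the minus strand. It shares 797 exon bases with the antisense gene AC008914.1, whose TPM was at most 0.116, and the sources used here do not say whether the libraries kept strand.

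The ratio of IL6R to IL6ST, which hardly depends on how a library is scaled, changed between the early and the later days. In TPM it was 3.27 to 3.43 in untreated cells, 3.13 to 3.46 at day 2, 1.70 to 2.91 at day 3 and 1.62 to 2.61 at day 5. The day 2 ratios overlapped those of untreated cells, whereas all 6 libraries of day 3 and day 5 lay below them. As a difference of log2(TPM + 1) the group means were 1.73 ± 0.035, 1.68 ± 0.082, 1.17 ± 0.39 and 0.94 ± 0.36 (SD, n = 3 each). Over all 9 treated libraries the mean lay 0.47 below untreated (difference -0.47, exact two-sided permutation test over 220 choices, p = 0.0364), which did not pass after adjustment over the 4 ratios tested (adjusted p = 0.145). Without the day 2 replicate 2, the treated library with the highest ratio, the difference was -0.53 and passed (exact permutation test, adjusted p = 0.0485). No other alternative passed for this ratio, neither leaving out any other single library nor a pseudocount of 0.1.

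IGF1R, the receptor tyrosine kinase for IGF1 and IGF2, stood much lower than IL6R in these cells. Its TPM was 5.86, 6.17 and 4.62 in untreated cells, 6.39, 7.60 and 7.27 at day 2, 2.49, 4.47 and 3.26 at day 3, followed by 2.32, 3.21 and 4.48 at day 5. The day 3 and day 5 libraries were all below the untreated ones and overlapped each other. It was called lower at day 3 (log2 change -0.59 ± 0.20, adjusted p = 0.0136) and at day 5 (-0.62 ± 0.20, adjusted p = 0.00947), but the rescaled changes were 0.11 and 0.37 and neither was called. The call at day 5 was lost without the day 5 replicate 1 (-0.44), and the call at day 3 without the untreated replicate 2 (-0.52) or the day 3 replicate 1 (-0.43). IGF1R lies on chr15:98648539-98964530 on the plus strand.

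INSR, the insulin receptor, which also forms hybrids with IGF1R, followed a like course at a higher level. Its TPM was 21.7, 21.8 and 19.9 in untreated cells, 22.0, 27.3 and 23.6 at day 2, 10.2, 16.7 and 12.2 at day 3, followed by 11.6, 10.9 and 18.8 at day 5. The later libraries were all below the untreated ones, and within day 5 the replicate 3 stood well above the rest. The log2 change was -0.69 ± 0.19 at day 3 (adjusted p = 0.00492) and -0.62 ± 0.19 at day 5 (adjusted p = 0.00800), both called lower, whereas after rescaling INSR was at 0.13 at day 3 and was called higher at day 5 (0.53, adjusted p = 0.00536). Without the day 5 replicate 2 the day 5 change was -0.49 and not called. The ratio of IGF1R to INSR was 0.233 to 0.283 in untreated cells and 0.201 to 0.294 at day 5. Over the treated libraries it differed from untreated by 0.074 on the log2 scale (exact permutation test, p = 0.355, adjusted p = 0.709). INSR lies on chr19:7112255-7294034 on the minus strand.

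JAK1, the kinase on gp130 taken to be the main one for STAT3 signaling, was 1 of the 2 genes called higher at day 2, and it was so on both scales. Its TPM was 21.1, 23.2 and 18.8 in untreated cells, 30.2, 31.9 and 30.6 at day 2, 14.2, 19.8 and 15.3 at day 3, followed by 11.1, 11.5 and 18.6 at day 5. All day 2 libraries were above all others, and all day 5 libraries were below the untreated ones. The log2 change was 0.54 ± 0.17 at day 2 (adjusted p = 0.0208), -0.35 ± 0.17 at day 3 (adjusted p = 0.0789) and -0.61 ± 0.17 at day 5 (adjusted p = 0.00427). The fall at day 5 turned into a call in the other direction after rescaling (0.54, adjusted p = 0.00134), beside 0.75 at day 2 and 0.47 at day 3. On the deposited scale JAK1 was among 97 tested genes called higher at day 2 and lower at day 5, 0.812% of all. The day 2 call was lost without the untreated replicate 3 (0.46) or the day 2 replicate 2 (0.52, adjusted p = 0.0577), and the day 5 call without the day 5 replicate 1 (-0.49). JAK1 lies on chr1:64833229-64966504 on the minus strand and shares 4 exon bases with RAVER2 on the other strand.

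JAK2, the other gp130-bound kinase among the 10, stood well below JAK1. Its TPM was 2.60, 2.89 and 2.41 in untreated cells, 3.32, 2.58 and 2.52 at day 2, 2.41, 2.11 and 2.16 at day 3, followed by 1.23, 1.60 and 1.50 at day 5. The libraries of day 2 and day 3 overlapped those of untreated cells, and the day 5 libraries were below all others. The log2 change was -0.57 ± 0.13 at day 5 and called lower (adjusted p = 8.24e-04), but it was 0.24 and not called after rescaling. The ratio of JAK1 to JAK2 in TPM was 7.82 to 8.13 in untreated cells, 9.11 to 12.4 at day 2, 5.91 to 9.38 at day 3 and 7.16 to 12.4 at day 5. All day 2 ratios lay above the untreated ones, but over the 9 treated libraries the log2 difference was 0.086 (exact permutation test, p = 0.727, adjusted p = 0.955). JAK2 lies on chr9:4984390-5128183 on the plus strand.

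STAT3, the transcription factor downstream of these kinases, held its level at day 2 within the replicate spread and was lower from day 3. Its TPM was 21.1, 18.6 and 19.0 in untreated cells, 18.4, 20.6 and 17.0 at day 2, 7.08, 10.6 and 7.30 at day 3, followed by 5.53, 6.06 and 9.02 at day 5. No later library reached the lowest untreated or day 2 library, and day 3 and day 5 overlapped. The log2 change was -0.065 ± 0.17 at day 2 (adjusted p = 0.783), -1.16 ± 0.17 at day 3 (adjusted p = 3.01e-05) and -1.41 ± 0.17 at day 5 (adjusted p = 3.24e-06). Relative to the median of all tested genes STAT3 was at -0.43 on day 3 and -0.42 on day 5. After rescaling the changes were 0.15, -0.36 and -0.29, and none of them was called, although all day 3 and day 5 libraries remained below all untreated ones. STAT3 lies on chr17:42313324-42388568 on the minus strand.

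SOCS1 and SOCS3, which block JAK activity as feedback inhibitors and are induced by STAT signaling in many cells, were at the floor of the measurement. SOCS1 was listed at 0 in 6 of the 12 libraries and at most at 0.195 TPM, in the day 5 replicate 2. SOCS3 ranged from 0.331 to 0.865 TPM, with 0.449, 0.523 and 0.400 in untreated cells, 0.671, 0.607 and 0.865 at day 2, 0.331, 0.497 and 0.347 at day 3, followed by 0.473, 0.447 and 0.615 at day 5. The day 2 libraries of SOCS3 lay above all others except the day 5 replicate 3. With no filter on low values, neither gene was called in any comparison, but SOCS1 could not have been. Its log2(TPM + 1) was at most 0.257, below the change of 0.5 that a call needs. SOCS3 changed by -0.30 from day 2 to day 3 (limma with no filter, adjusted p = 0.0172), which missed the size threshold. The ratio of SOCS1 to SOCS3 differed by -0.011 between treated and untreated libraries (exact permutation test, p = 0.955, adjusted p = 0.955), and at these levels its direction carries no weight. SOCS1 lies on chr16:11254405-11256200 and SOCS3 on chr17:78356778-78360077, both on the minus strand.

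PIM2, a survival kinase that MM cells express at high levels, was the most abundant of the 10 genes in every library. Its TPM was 309, 294 and 298 in untreated cells, 416, 446 and 414 at day 2, 272, 363 and 269 at day 3, followed by 189, 211 and 298 at day 5. All day 2 libraries were above all others, and the day 3 and day 5 libraries overlapped the untreated ones. The log2 change was 0.50 ± 0.15 at day 2 and called higher (adjusted p = 0.0126), -0.0076 ± 0.15 at day 3 (adjusted p = 0.964) and -0.39 ± 0.15 at day 5 (adjusted p = 0.0215), the last below the size threshold. After rescaling PIM2 was called higher at all 3 days, by 0.73, 0.86 and 0.83, as were 9.62% of all tested genes. Its place by mean TPM was 385 in untreated cells, 239 at day 2, 255 at day 3 and 280 at day 5. On the deposited scale the day 2 call was lost without the untreated replicate 2 (0.49) or 3 (0.50) or the day 2 replicate 2 (0.47), and without the day 5 replicate 3 PIM2 was called lower at day 5 (-0.59). PIM2 lies on chrX:48913182-48919024 on the minus strand.

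Since PIM2 and JAK1 were the genes called higher at day 2 on both scales, the 150 bases before their start sites are shown, from the RefSeq promoter windows on GRCh38.p14. The stretch of PIM2 is chrX:48919025-48919174 and that of JAK1 is chr1:64966550-64966699, both on the minus strand and written 5′ to 3′. The JAK1 window starts 45 bases from the GENCODE 29 start and the PIM2 window at it. Capitals mark the letters CCAAT or TGACG on either strand:
PIM2: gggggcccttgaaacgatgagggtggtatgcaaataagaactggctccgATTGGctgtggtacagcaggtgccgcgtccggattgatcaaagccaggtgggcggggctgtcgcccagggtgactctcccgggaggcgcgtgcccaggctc
JAK1: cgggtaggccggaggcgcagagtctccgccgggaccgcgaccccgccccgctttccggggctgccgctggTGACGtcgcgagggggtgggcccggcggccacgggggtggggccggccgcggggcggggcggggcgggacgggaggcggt

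In the 250 bases before the start sites, the STAT motif TTCNNNGAA was found in 0 of the 16 windows of the 10 genes, and in 6.57% of 35116 windows of all genes. CCAAT was found in 3 of the 16, those of IL6ST, PIM2 and STAT3, against 32% of all windows. TGACG was found in 4 of the 16, from JAK1, JAK2 and STAT3, against 21.2% of all. A match or its lack is a description of these windows only.

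Between neighbouring days, which leaves the untreated libraries out, the change from day 2 to day 3 was the broad one. All 8 tested genes had every day 3 library below every day 2 library, as did 70.1% of all tested genes, and 7 were called lower, all but JAK2, against 55.5% of all tested genes lower and 3.22% higher. The changes ran from -0.51 for PIM2 to -1.22 for IL6R among those called, with -1.09 for STAT3, while the median of all tested genes was -0.57. After rescaling IL6R (-0.59) and STAT3 (-0.51) were the 2 called lower, against 13.6% of all genes lower and 14.3% higher, and PIM2 turned to 0.12. From day 3 to day 5 the 2 called lower were the IL6 receptor chains IL6R (-0.80, adjusted p = 0.00470) and IL6ST (-0.57, adjusted p = 0.00429), against 13.1% of all genes lower and 0.67% higher. After rescaling 0 of 8 were called (background 2.03% lower, 4.43% higher), with IL6R at -0.45 (adjusted p = 0.0207). IL6R lay at percentile 1.8 of all changes from day 3 to day 5, and IL6ST at 8.6.

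The ligands looked up here, from the IL6 and IGF families, had group means below 1 TPM in MM1S cells. Group means were 0.0824 to 0.201 TPM for IL6, at most 0.0524 TPM for IL11, at most 0.00438 TPM for LIF and 0.230 to 0.683 TPM for OSM. IGF2 was at most 0.0984 TPM. IGF1 was the highest, at 0.966, 0.822, 0.973 and 0.335 TPM in untreated cells and at day 2, day 3 and day 5, and it was called lower at day 5 (log2 change -0.53), but not after rescaling (-0.10).

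Of the other 15 cytokines, receptors and shedding enzymes of the IL6 family, 4 passed the filter, and all 4 were called lower at day 5 with a median of -1.24, where 69.8% of all tested genes were lower with a median of -0.99. After rescaling 0 of 4 were called. They were LIFR, the LIF receptor chain that pairs with gp130 (3.41 TPM in untreated cells and 0.845 at day 5, log2 change -1.25), IL27RA (13.1 and 6.49 TPM, -0.91), and the proteases that cleave IL6R from the cell surface, ADAM10 (104 and 42.5 TPM, -1.29) and ADAM17 (10.2 and 3.80 TPM, -1.23). LIFR was called lower at day 2 as well (-0.58). OSMR was listed at 0 in the untreated group.

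Other cytokine receptors, most of which use JAK kinases, moved in both directions, as did all tested genes. Of 12 listed, 8 passed the filter, and at day 5 the calls were 5 lower (IL10RB, IL4R, IL15RA, IL12RB1 and CSF2RB) and 2 higher (IL2RG and IL21R). Of all tested genes 69.8% were lower and 7.73% higher. After rescaling, IL10RB, IL15RA and CSF2RB were the 3 lower, and IL2RG, IL21R and IL10RA the 3 higher. The rescaled shares of all tested genes were 26.9% lower and 27.5% higher. IL2RG, the common gamma chain, rose the most, from 0.530 TPM in untreated cells to 3.16 at day 2, 3.30 at day 3 and 3.96 at day 5 (log2 change 1.68 at day 5, 2.37 rescaled). IL10RB, a chain of the IL10 receptor, fell the most, from 6.53 to 0.900 TPM (-2.09, and -1.30 rescaled).

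Among the other JAK and STAT genes, TYK2 was lower from day 2 on the deposited scale. STAT5B fell the most, from 9.20 to 2.73 TPM at day 5 (-1.46, and -0.45 and not called after rescaling). TYK2, the other kinase on gp130, had 36.7 TPM in untreated cells, 25.0 at day 2, 14.0 at day 3 and 13.6 at day 5, and was called lower at day 2 (-0.53), day 3 (-1.34) and day 5 (-1.38), while after rescaling day 3 alone was called (-0.51). In untreated cells TYK2 was thus higher than JAK1, and at day 2 JAK1 was the higher one in every library. JAK3, which pairs with the common gamma chain, went from 6.98 to 3.67 TPM at day 5 and was called lower (-0.81), but not after rescaling (0.20). The list had 7 tested genes, of which 3 were called lower (JAK3, TYK2 and STAT5B) and 1 higher at day 5. After rescaling 0 were lower and 4 higher (median 0.92). Of all tested genes 69.8% were lower and 7.73% higher at day 5, with 26.9% lower and 27.5% higher after rescaling.

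**Figure D3:**
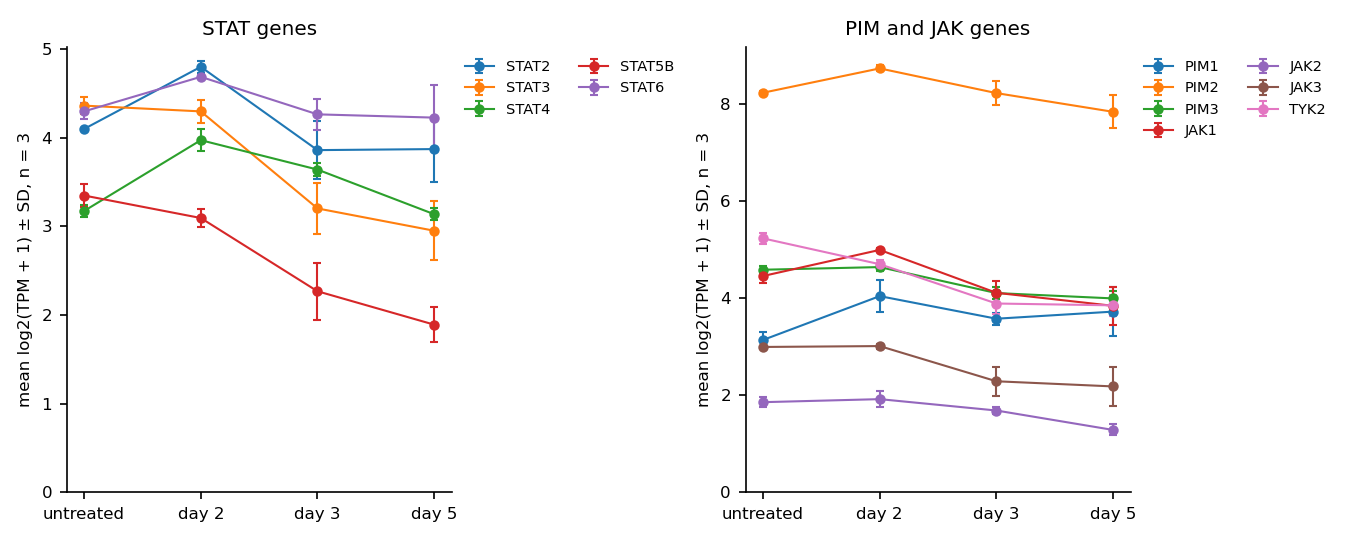
Mean log2(TPM + 1) ± SD (n = 3 libraries) of 5 STAT genes (left) and of the PIM and JAK genes with TYK2 (right) in untreated cells and at day 2, day 3 and day 5 of NGI-1. STAT3 had a log2 change of -0.065 at day 2 and -1.41 at day 5, and PIM2 stayed above the other kinases at each time.

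The PIM kinases kept their order of abundance between PIM2 and the others. PIM2 made up 90.7% ± 0.548 (SD, n = 3) of the summed TPM of PIM1, PIM2 and PIM3 in untreated cells, 91.4% ± 1.06 at day 2, 91.6% ± 0.643 at day 3 and 89.3% ± 0.145 at day 5. The share of PIM1 was 2.38% ± 0.314 in untreated cells and 4.80% ± 0.747 at day 5. PIM1 was at 7.86 TPM in untreated cells, 15.8 at day 2 and 12.8 at day 5, and was called higher at day 2 (0.90) and day 5 (0.58; 1.69 rescaled). PIM3 was at 23.1, 24.0, 16.3 and 15.0 TPM and was called lower at day 5 (-0.59), but higher after rescaling (0.57).

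The other negative regulators of JAK-STAT signaling were set beside all tested genes, of which 69.8% were lower at day 5 and 26.9% after rescaling. Of 16 listed, 14 passed the filter, and 12 were called lower and 0 higher at day 5 (median -1.40), with 6 lower and 1 higher after rescaling (median -0.39). PTPN11, the phosphatase SHP2 that binds gp130 at the site used by SOCS3, fell the most, from 41.2 TPM in untreated cells to 28.2 at day 2, 11.8 at day 3 and 7.61 at day 5 (-2.32, and -1.17 rescaled). No gene of this list was called higher at day 5 on the deposited scale, and the 1 called higher after rescaling was SOCS2 (1.53), named here after its values were seen, which had 9.44 TPM in untreated cells and 12.8 at day 5 (0.41, not called).

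Genes known as STAT3 targets did not move as 1 group. Of 21 listed, 20 were tested, and 14 were called lower and 3 higher at day 5 (median -0.78). Of all tested genes 69.8% were lower and 7.73% higher, so the share called lower was near that of all genes. After rescaling 4 were lower (BIRC5, BCL2L1, CCND1 and HIF1A) and 8 higher (median 0.38). The rescaled shares of all tested genes were 26.9% lower and 27.5% higher. FOS, an immediate early transcription factor, rose the most (0.428 TPM in untreated cells, 3.49 at day 5, log2 change 1.65, and 2.32 rescaled). BIRC5, which encodes survivin and is expressed in dividing cells, fell the most, from 48.6 to 15.0 TPM at day 2, 1.86 at day 3 and 0.463 at day 5 (-5.09, and -4.28 rescaled). The other 2 called higher on the deposited scale were PIM1 and the survival factor BCL2 (3.81 TPM in untreated cells, 13.4 at day 5, 1.53, and 2.58 rescaled).

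For the lists downstream of IGF1R the shares of all tested genes at day 5 were again 69.8% lower and 7.73% higher. After rescaling they were 26.9% and 27.5%. Of 20 ligands, binding proteins and adaptors of the IGF system, 9 were tested, and 8 were called lower and 1 higher at day 5, with 1 lower and 1 higher after rescaling. IGFBP7, a secreted protein of the IGF-binding family, was the one that rose, from 1.76 to 5.21 TPM (1.18, and 2.08 rescaled), and the adaptor SHC1 fell the most, from 161 to 48.1 TPM (-1.74, and -0.52 rescaled). Of 20 tested genes of the PI3K-AKT pathway 15 were called lower and 0 higher, with 5 lower (PIK3CB, PIK3R3, INPP5D, PDPK1 and RPTOR) and 3 higher (PIK3CA, FOXO4 and RICTOR) after rescaling. The largest fall there was in INPP5D, the lipid phosphatase SHIP1 (14.1 to 2.54 TPM, -2.11, and -1.09 rescaled). Of 20 tested RAS-MAPK genes 17 were called lower and 0 higher, with 5 lower and 2 higher (GAB1 and NF1) after rescaling. NRAS fell the most, from 295 to 57.1 TPM (-2.35, and -1.14 rescaled).

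**Figure D4:**
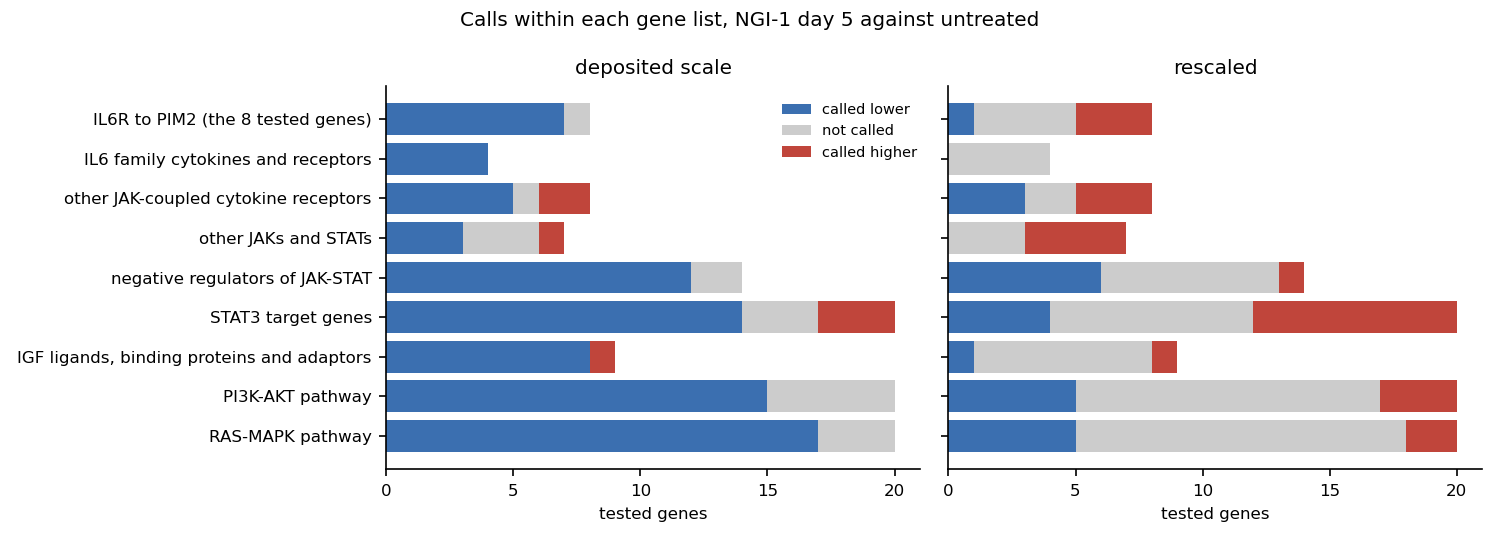
Number of tested genes called lower (blue), not called (grey) and called higher (red) at NGI-1 day 5 against untreated in each gene list, on the deposited scale (left) and after rescaling (right). Of the 8 genes from IL6R to PIM2, 7 were lower on the deposited scale, and 1 was lower and 3 higher after rescaling.

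By likeness of pattern over the 12 libraries on the rescaled log2 scale, among 5432 other genes with a mean TPM of at least 10, the genes most like IL6R were NOMO1 (Pearson r = 0.979), CABLES1 (0.974) and C16orf54 (0.971). The genes most like PIM2, the gene with the highest change at day 5, were TXNDC5 (0.985), LPCAT4 (0.984) and TPRG1L (0.983). The 12 libraries fall into 4 groups of 3, so these values describe mainly the group means and are given without a test.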

How the data were processed

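RNA of MM1S cells was sequenced in 12 libraries. Per the labels and the submitters' processing notes, the authors used FastQC, Trimmomatic, STAR and Salmon on hg38, with no versions given, and deposited log2(TPM + 1) values for 59276 genes. Counts were not analysed here, so depth is unknown, and TPM keeps none. Groups were taken from the labelled day.

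The values were fitted with limma 3.58.1 (R 4.3.3), with 1 mean per group and a mean-variance trend, over the 11939 genes that reached 1 TPM in 3 or more libraries. Ratios were compared with exact two-sided permutation tests, Benjamini-Hochberg adjusted over the 4 ratios. The fit was tested on simulated data. Alternatives were rescaling, no filter or one of 5 TPM, a pseudocount of 0.1, pairwise fits, no trend, a log2 threshold of 1, leaving out the 20 most abundant genes, and leaving out each library. Leaving out both the day 3 replicate 2 and the day 5 replicate 3 was added after the data were seen.

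The 10 genes and all lists were chosen with earlier results of these data known. The rule for named genes took the 10, in each list the largest rise and fall at day 5 among called genes with a mean TPM of at least 1, PIM1, PIM3, TYK2, JAK3, the ligands named above, and, for the genes with the highest and lowest change at day 5, the 3 most alike genes. Most genes behind counts of 5 or fewer are named outside that rule, after their values were seen. Some genes of the lists are not reported here by name.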

Additional observations from a re-analysis of the deposited data

Results flagged for a closer look

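In all, 9 changes of the 8 tested genes differed between treated days by the test of that difference itself (limma, Benjamini-Hochberg adjusted over all tested genes). From day 2 to day 3, log2 changes of -1.22 for IL6R, -0.71 for IL6ST, -0.90 for IGF1R, -0.87 for INSR, -0.88 for JAK1, -1.09 for STAT3 and -0.51 for PIM2 were called. From day 3 to day 5 they were -0.80 for IL6R and -0.57 for IL6ST. Of all tested genes 55.5% were called lower from day 2 to day 3, and 13.1% from day 3 to day 5. The call of PIM2 was lost without the day 2 replicate 2 (-0.47) or the day 3 replicate 1 (-0.44) or 3 (-0.43), and that of IL6ST from day 3 to day 5 without the day 3 replicate 3 (-0.46) or the day 5 replicate 1 (-0.48). After rescaling, the falls of IL6R and STAT3 from day 2 to day 3 were the only ones of these still called. The rescaled shares of all tested genes called lower were 13.6% from day 2 to day 3 and 2.03% from day 3 to day 5. No group was large enough for a test of single outlying libraries.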

How the results depend on the processing

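The choice of scale decided many directions, and most of those at day 3 and day 5 against untreated. Among changes called on at least 1 scale, rescaling reversed IGF1R (0.11), INSR (0.13) and PIM2 (0.86) at day 3 against untreated. At day 5 it reversed IL6ST (0.13), IGF1R (0.37), INSR (0.53), JAK1 (0.54), JAK2 (0.24) and PIM2 (0.83), and from day 2 to day 3 PIM2 (0.12). Changes called on neither scale also switched sign. These were STAT3 at day 2 (0.15) and IL6ST (0.36), JAK1 (0.47) and JAK2 (0.43) at day 3. Between days they were JAK2 from day 2 to day 3 (0.22), and IGF1R (0.26), JAK1 (0.067) and STAT3 (0.065) from day 3 to day 5. The counts called lower then became 0 at day 3, 1 at day 5, 2 from day 2 to day 3 and 0 from day 3 to day 5, and those called higher 1 at day 3 and 3 at day 5. Without the 20 most abundant genes, 2 were called lower at day 3 and 3 at day 5. With a log2 threshold of 1 the counts were 0 higher at day 2, 2 lower at day 3, 3 at day 5, 2 from day 2 to day 3 and 0 from day 3 to day 5. With no filter, 0 were called higher at day 2, where JAK1 had an adjusted p of 0.0726 and PIM2 of 0.0589. Leaving out 1 library at a time gave 0 to 2 higher at day 2, 3 to 5 lower at day 3, 5 to 8 lower at day 5, 6 to 7 from day 2 to day 3 and 1 to 3 from day 3 to day 5. The share of all tested genes called was taken for the main and rescaled fits only. The counts under the other alternatives thus have no background and do not show whether all genes moved alike. The log2 ratio of SOCS1 to SOCS3 changed sign with a pseudocount of 0.1 (0.24) and lay between -0.050 and 0.028 without 1 library, and that of IL6R to IL6ST between -0.53 and -0.39. Without a trend or between pairs of groups no call changed, nor did one with the filter at 5 TPM, which JAK2 did not pass. With a pseudocount of 0.1 the 1 call that changed was JAK2 from day 3 to day 5 (-0.59, lower). Without both the day 3 replicate 2 and the day 5 replicate 3, the 1 call that changed was that of PIM2 at day 5 (-0.59, lower). No paired analysis was possible because the labels number the libraries serially from H1 to H12 and share no replicate number between groups. The depth of the libraries is unknown, which limits what can be said of SOCS1, SOCS3 and the ligands.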
